A study of Homo sapiens with 8 samples.

Results

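The genes described here build the mitotic spindle, load and capture chromosomes, and divide the cell. They comprise 54 genes chosen by name for their role in mitosis and cytokinesis, with earlier results of these data known. All 54 were among the 13943 genes tested, of 38032 gene identifiers listed. They were measured in HepG2, an established cell line from a human liver carcinoma. Polyadenylated RNA was sequenced in 4 libraries of cells grown for 8 days on flat plastic (2D-primed) and 4 of cells grown for 8 days on a porous polystyrene scaffold (3D-primed), and the comparison asks how the substrate on which the cells were primed alters their expression. No drug or genetic change was applied to either group. The cells of both groups were released with trypsin before lysis. The methods seed scaffolds densely and do not say which well format gave the RNA, so that seeding density and substrate cannot be told apart.

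A cell enters mitosis when cyclin B and its kinase CDK1 are switched on by the CDC25 phosphatases, helped by the kinases PLK1 and AURKA. Condensins then compact the chromosomes, kinesin motors and spindle proteins build the spindle, and kinetochores attach each chromosome to it while the spindle checkpoint holds back anaphase. The anaphase-promoting complex with its activator CDC20 then releases separase, which opens the cohesin rings, and a contractile ring divides the cell. Most of these genes are transcribed mainly in G2 and M phase, through promoters bound by the MuvB complex with B-MYB and FOXM1, so their RNA is widely read as a sign of dividing cells.

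In 3D-primed cells most of these genes were lower. At an adjusted p below 0.05 in edgeR's quasi-likelihood test, 39 of the 54 genes were lower in 3D-primed cells, where 31.6% of all genes tested were lower. Only BIRC5 was higher, where 32.4% of all genes tested were higher, and 14 genes did not pass the threshold. Calls in either direction thus came to 40 of 54 members, against 63.9% of all genes tested. The values of the groups did not overlap in 35 members, all of them lower in 3D-primed cells. Over all genes tested, 59.8% had groups that did not overlap, 29.5% with the 3D-primed group below and 30.2% with it above. The fall was shallow for most members. The median log2 fold change (3D-primed over 2D-primed) was -0.28, against 0.01 over all genes tested, while the median size of the change regardless of sign was 0.28 for the members and 0.34 for all genes tested. A fall of at least 1.5-fold was measured in 9 members, ECT2, CDC25B, ANLN, PTTG1, ESPL1, INCENP, MKI67, TPX2 and KIF2C, where 13.7% of all genes tested were called at that size and direction. At 2-fold or more, ECT2 and CDC25B were lower and no member was higher, where 7.01% of all genes tested were lower and 4.86% were higher. The summed level of the members went from 3189 ± 87.2 CPM (counts scaled to a common library size) to 2443 ± 107 CPM (SD, n = 4), a change of -23.4%. In bulk RNA, fewer cells in G2 or M phase and less of each RNA per cell cannot be told apart.

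**Figure D1:**
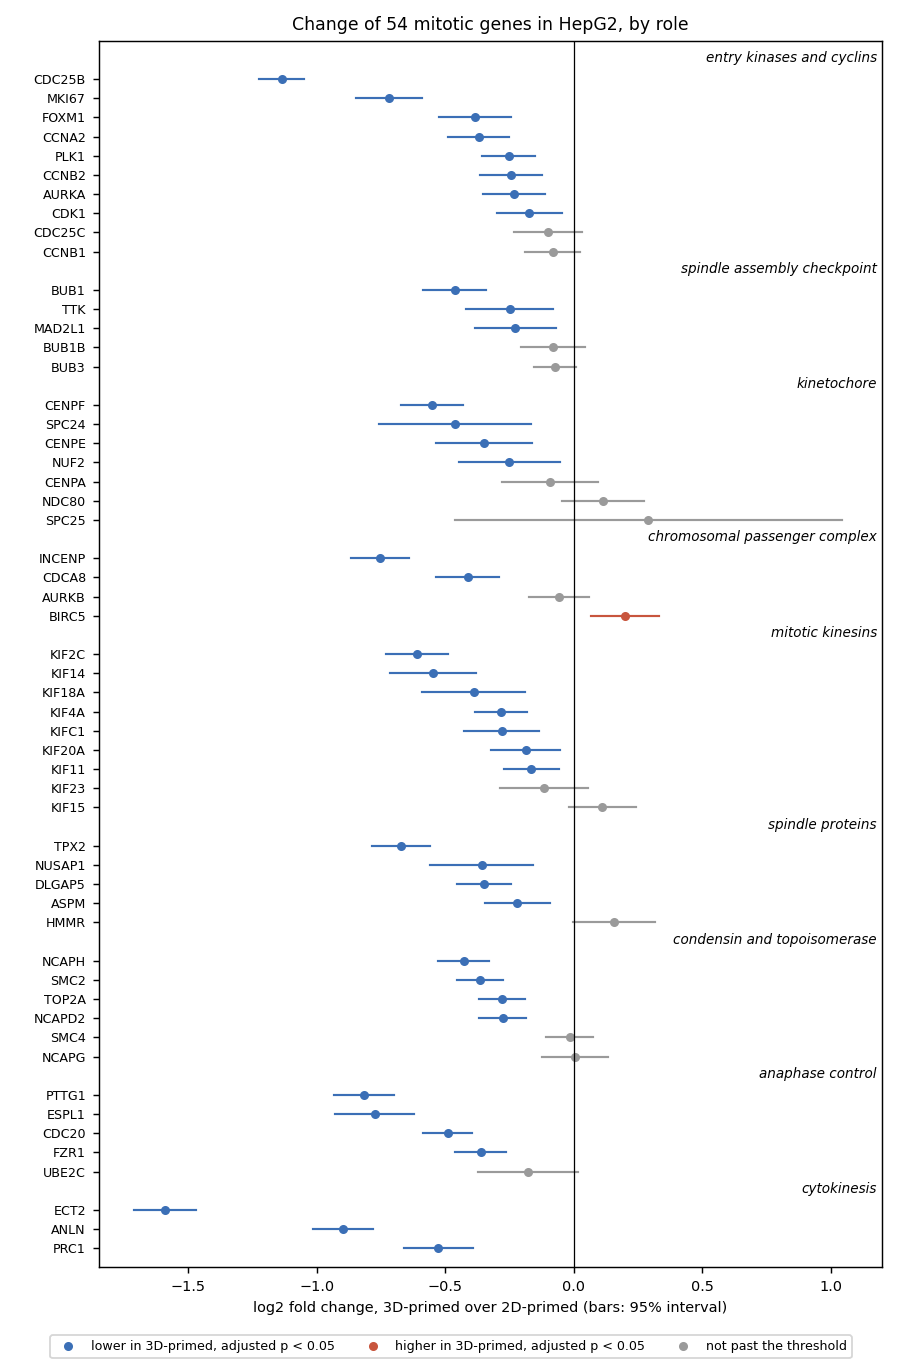
The 54 genes by role, with the log2 fold change of 3D-primed over 2D-primed cells on the horizontal axis; points are edgeR estimates from 4 libraries a group, bars their 95% intervals, and colours the call. Most points lie left of 0 at a median of -0.28, ECT2 lies farthest left at -1.59, and BIRC5 is the only gene called higher, at 0.20.

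The promoters of these genes share sequence that the choice of members did not use. The cell cycle genes homology region (CHR), with the letters TTTGAA, is the element to which the MuvB subunit LIN54 binds, and the CCAAT box, with the letters CCAAT, binds NF-Y. Both were searched on both strands in the RefSeq promoters of GRCh38.p14, from 250 bases before to 50 bases after the start, and 47 of the 54 members had an entry. A CHR was present in at least 1 window of 36 of these 47 genes (76.6%), where it was present in 13.9% of the genes tested that had an entry and in 1 of 30 DNA replication genes (3.33%). The CCAAT box was present in 36 of the 47 members (76.6%), in 43.1% of the genes tested and in 18 of the 30 DNA replication genes. By window rather than by gene, 65.0% of the members' 60 windows and 10.6% of those of the genes tested held a CHR, and 68.3% and 34.8% held a CCAAT box. Both motifs stood in the same window in 48.3% of the members' windows, against 4.28% for the genes tested.

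The 120 bases just before the start are printed for 6 members with log2 fold changes from -0.82 (PTTG1) to 0.01 (NCAPG), 5' to 3' on the gene's strand, with the letters of either motif on either strand in capitals. They are from ESPL1 at chr12:53268179-53268298 (plus strand), MKI67 at chr10:128126424-128126543 (minus strand), CDC20 at chr1:43358861-43358980 (plus strand), KIF11 at chr10:92593010-92593129 (plus strand), NCAPG at chr4:17810859-17810978 (plus strand) and PTTG1 at chr5:160421735-160421854 (plus strand, the first of its 2 windows).
ESPL1: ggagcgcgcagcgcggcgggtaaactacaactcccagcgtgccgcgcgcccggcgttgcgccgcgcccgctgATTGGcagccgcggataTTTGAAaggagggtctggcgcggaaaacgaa
MKI67: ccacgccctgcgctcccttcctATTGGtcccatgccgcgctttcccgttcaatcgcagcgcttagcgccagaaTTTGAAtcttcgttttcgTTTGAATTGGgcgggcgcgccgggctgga
CDC20: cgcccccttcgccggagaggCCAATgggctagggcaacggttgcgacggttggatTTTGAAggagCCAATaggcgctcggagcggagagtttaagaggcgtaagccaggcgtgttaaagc
KIF11: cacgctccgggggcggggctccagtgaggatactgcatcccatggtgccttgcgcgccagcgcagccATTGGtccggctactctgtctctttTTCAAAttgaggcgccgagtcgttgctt
NCAPG: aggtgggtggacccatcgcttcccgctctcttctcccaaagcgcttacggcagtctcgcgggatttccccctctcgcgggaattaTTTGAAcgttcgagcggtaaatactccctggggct
PTTG1: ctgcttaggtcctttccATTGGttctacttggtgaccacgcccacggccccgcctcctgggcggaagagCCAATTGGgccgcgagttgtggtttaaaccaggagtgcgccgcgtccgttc
In MKI67 a CHR and a CCAAT box on the other strand share letters, and in PTTG1 the boxes of both strands overlap. ESPL1, MKI67, CDC20, KIF11 and NCAPG hold a CHR within these bases, and PTTG1 holds no TTTGAA on either strand in its windows. Only these letters were searched for a CHR, so other forms of the element would be missed. No test of the motifs against the size of the change was made. Among the 36 members with a CHR, 26 were lower in 3D-primed cells and the median log2 fold change was -0.28. The 11 without TTTGAA on either strand were AURKB, BUB1, CCNA2, CCNB1, CDC25B, CENPE, KIF20A, KIF2C, NCAPH, PTTG1 and SPC24. Of these, 9 were lower and the median was -0.43. A motif match describes the letters of the window and does not show binding.

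Of the roles into which the members were sorted, cytokinesis, with only ECT2, ANLN and PRC1, had the largest median fall. All 3 were lower in 3D-primed cells, with a median log2 fold change of -0.90. Beside this and each count by role below, 31.6% of all genes tested were lower and 32.4% higher. The rank of this role depends on the sorting. KIF14, KIF20A and KIF23, which also act in cytokinesis or at the central spindle, were counted as kinesins, at -0.55, -0.19 and -0.11. ECT2 (ENSG00000114346, chromosome 3, 172750682 to 172821474 of GRCh38) encodes the exchange factor that activates RhoA at the cleavage site. It was counted at 109, 103, 120.1 and 104 CPM in the 4 2D-primed libraries and at 34.9, 37.2, 35.8 and 36.9 CPM in the 4 3D-primed libraries. The groups lay far apart, with the 3D-primed libraries close to each other. The level went from 109 ± 7.85 to 36.2 ± 1.03 CPM (SD, n = 4), which is 3.01-fold lower, with a log2 fold change of -1.59 and a standard error of 0.0545 (edgeR, adjusted p = 2e-08). ANLN (ENSG00000011426, chromosome 7, 36389821 to 36453791) encodes anillin, a scaffold of the contractile ring. Its 2D-primed libraries held 93.9, 96.3, 103 and 95.4 CPM and its 3D-primed libraries 49.3, 56.2, 49.5 and 53.8 CPM. All 2D-primed values were above all 3D-primed values, and the log2 fold change was -0.90 (edgeR, adjusted p = 2.8e-07, with a standard error of 0.0522). PRC1, which bundles the antiparallel microtubules of the central spindle, was lower at -0.53 (from 67.6 ± 3.36 to 46.9 ± 3.67 CPM).

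Among the genes of mitotic entry, 8 of 10 were lower, with a median of -0.25, and the activating phosphatases parted from each other. CDC25B (ENSG00000101224, chromosome 20, 3786772 to 3806121), the phosphatase that starts the activation of CDK1 at the centrosome, stood at 109, 112, 111 and 105 CPM in the 2D-primed and at 51.4, 50.7, 48.1 and 48.6 CPM in 3D-primed libraries. Each group was narrow and the groups did not overlap. The log2 fold change was -1.14 (edgeR, adjusted p = 2e-08, with a standard error of 0.0396), a 2.20-fold fall. CDC25C, its relative that acts in the same step, was at 13.9 ± 0.220 and 12.9 ± 0.849 CPM, with a log2 fold change of -0.10 and an interval from -0.23 to 0.03. The ratio of CDC25B to CDC25C therefore went from 7.88 to 3.85, and the ratios of the 4 3D-primed libraries (3.45 to 4.18) were all below those of the 2D-primed libraries (7.72 to 8.05). MKI67 (ENSG00000148773, chromosome 10, 128096659 to 128126423), which coats mitotic chromosomes and is the usual marker of cycling cells, was at 166, 151, 159 and 145 CPM in the 2D-primed and at 87.7, 102, 92.6 and 95.2 CPM in 3D-primed libraries. The groups did not overlap, and the log2 fold change was -0.72 (edgeR, adjusted p = 2.3e-06).

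The kinases and cyclins of entry moved less. CCNA2, the cyclin of S and G2 phase, was lower at -0.37 on the log2 scale, FOXM1, a transcription factor of this gene programme, at -0.38, PLK1 at -0.25, CCNB2 at -0.24, AURKA at -0.23 and CDK1 at -0.17, and in all 6 the groups were apart. CCNB1, the main mitotic cyclin, missed the threshold, with levels of 72.7 ± 2.06 and 68.7 ± 4.28 CPM. Its log2 fold change was -0.08 with an interval from -0.19 to 0.03. Among the entry genes with a promoter entry, CCNB1, CCNA2 and CDC25B hold no TTTGAA on either strand in their windows. PLK1, CDK1, CCNB2, CDC25C and MKI67 do. Other forms of the CHR were not searched, so the first 3 may still hold one. Lower calls occurred with and without these letters, and CDC25C (with) and CCNB1 (without) missed the threshold. The letters were not tested against the change. The ratio of CCNB1 to CCNB2 rose from 1.65 to 1.84, a log2 difference of 0.16 (two-sided exact permutation test, p = 0.0286, adjusted p = 0.0444 over 14 pairs), where 0.0286 is the smallest p that 4 libraries against 4 can give. The ratio of CCNB1 to its kinase CDK1 differed by 0.09 on the log2 scale (standard error 0.0412, exact permutation test, adjusted p = 0.100).

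**Figure D2:**
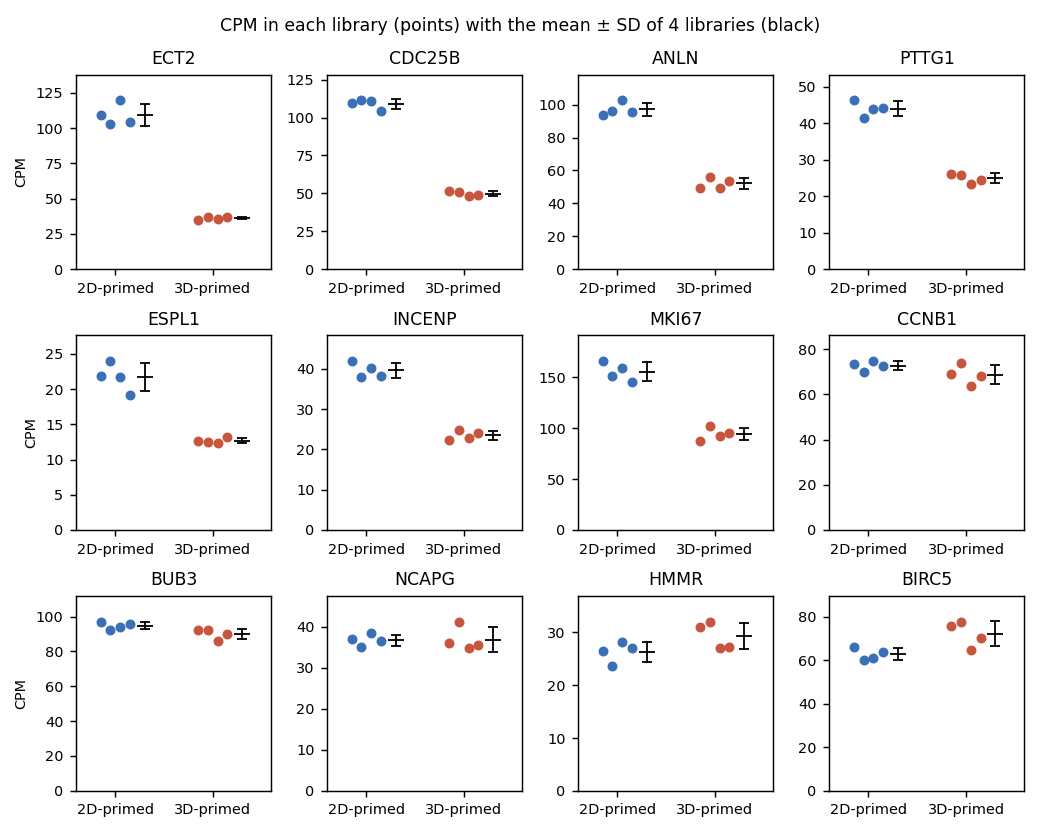
CPM in each of the 8 libraries (points) for 12 members, with the mean ± SD of 4 libraries in black and each vertical axis starting at 0. In ECT2, CDC25B, ANLN, PTTG1, ESPL1, INCENP and MKI67 the 2 groups are apart, while in CCNB1, NCAPG, HMMR and BIRC5 they overlap and in BUB3 they are apart by a narrow gap.

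Of the 5 genes that control anaphase, 4 were lower, with a median of -0.49. Securin and the protease it holds fell together. PTTG1 (securin, ENSG00000164611, chromosome 5, 160421855 to 160428739) was at 46.4, 41.4, 43.9 and 44.1 CPM in the 2D-primed and at 26.2, 25.9, 23.2 and 24.5 CPM in 3D-primed libraries. ESPL1 (separase, ENSG00000135476, chromosome 12, 53268299 to 53293638) was at 21.9, 24.0, 21.7 and 19.2 CPM in the 2D-primed and at 12.7, 12.5, 12.4 and 13.1 CPM in 3D-primed libraries. In both genes the groups were apart, with adjusted p of 5.2e-07 and 4.9e-06 in edgeR. Their ratio was 2.03 on flat plastic and 1.97 on the scaffold, a log2 difference of -0.04 (standard error 0.0969, exact permutation test, adjusted p = 0.677). CDC20, the activator of the anaphase-promoting complex in mitosis, was lower at -0.49 (65.1 ± 1.12 to 46.3 ± 2.37 CPM), and FZR1, the activator in late mitosis and G1, at -0.36. UBE2C, the ubiquitin-conjugating enzyme of that complex, was at 30.9 ± 2.58 and 27.3 ± 3.19 CPM, with a log2 fold change of -0.18 that did not pass the threshold (adjusted p = 0.10 in edgeR).

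The chromosomal passenger complex was the group in which members went opposite ways. This complex places the kinase AURKB at the centromere and later at the central spindle. INCENP (ENSG00000149503, chromosome 11, 62123998 to 62153169), its scaffold, was at 42.0, 38.0, 40.2 and 38.4 CPM in the 2D-primed and at 22.3, 24.7, 22.9 and 24.0 CPM in 3D-primed libraries. The groups were apart, and the log2 fold change was -0.75 (edgeR, adjusted p = 6.6e-07, with a standard error of 0.0501). CDCA8 (borealin) was lower at -0.41, and AURKB was at 23.2 ± 0.607 and 22.3 ± 1.27 CPM, a log2 fold change of -0.06 with an interval from -0.18 to 0.06.

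BIRC5 (survivin, ENSG00000089685, chromosome 17, 78214186 to 78225636), the subunit that reads the phosphorylated histone mark at the centromere and that also acts against apoptosis, was at 66.0, 60.3, 60.8 and 63.8 CPM in the 2D-primed and at 75.6, 77.7, 64.8 and 70.1 CPM in 3D-primed libraries. The groups overlapped, since 3D-primed replicate 3 lay below 2D-primed replicate 1. The log2 fold change was 0.20 (edgeR, adjusted p = 0.014, with a standard error of 0.0598). Without 3D-primed replicate 2 it was 0.16 and did not pass the threshold (edgeR, adjusted p = 0.052). The ratio of BIRC5 to CDCA8 rose from 1.53 to 2.33, and all 3D-primed ratios (2.13 to 2.42) were above all 2D-primed ratios (1.47 to 1.68; exact permutation test, p = 0.0286, adjusted p = 0.0444 over 14 pairs).

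In the spindle checkpoint 3 of 5 genes were lower, with a median of -0.23. BUB1, the kinase that marks the centromere and recruits other checkpoint proteins, fell farthest, from 61.3 ± 2.77 to 44.5 ± 3.02 CPM (-0.46, adjusted p = 3.6e-05 in edgeR). TTK, the kinase that starts the checkpoint signal, and MAD2L1, a subunit of the inhibitor of CDC20, were lower at -0.25 and -0.23 with overlapping groups. BUB1B and BUB3, which belong to the same inhibitor, did not pass the threshold, at -0.08 and -0.07. The 3D-primed libraries of BUB3 (92.2, 92.2, 86.2 and 89.7 CPM) lay just below its 2D-primed libraries (97.1, 92.4, 93.8 and 95.9 CPM), but its adjusted p was 0.11 in edgeR. The ratio of BUB1 to BUB1B fell from 1.87 to 1.43 (log2 difference -0.38, exact permutation test, p = 0.0286, adjusted p = 0.0444), while that of BUB1B to BUB3 differed by -0.01 (standard error 0.0417, adjusted p = 0.914 in the exact permutation test).

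Of the 7 kinetochore genes 4 were lower, with a median of -0.25 and means over all libraries from 1.56 to 92.4 CPM. CENPF, a large protein of the outer kinetochore, was lower at -0.55 (110 ± 3.67 to 74.9 ± 5.45 CPM, adjusted p = 9.2e-06 in edgeR), and CENPE, the kinesin of the kinetochore, at -0.35. CENPA, the histone H3 variant that marks the centromere, was at 14.8 ± 1.41 and 13.9 ± 1.12 CPM and did not pass the threshold. The 4 subunits of the NDC80 complex, which holds the microtubule, differed in sign: NUF2 and SPC24 were lower at -0.25 and -0.46 with overlapping groups, while NDC80 and SPC25 did not pass the threshold, at 0.11 and 0.29. Without 2D-primed replicate 1 or 3, or 3D-primed replicate 3 or 4, NUF2 did not pass the threshold (edgeR, adjusted p = 0.072, 0.080, 0.065 and 0.072). SPC25 was at 1.65, 1.30, 1.99 and 0.675 CPM in the 2D-primed and at 2.04, 1.95, 1.94 and 0.953 CPM in 3D-primed libraries. Its level rests on 16 to 54 counts a library, with an interval of the log2 fold change from -0.46 to 1.04. The ratio of NDC80 to NUF2 rose from 0.704 to 0.901 (exact permutation test, p = 0.0286, adjusted p = 0.0444), and that of SPC24 to SPC25 went from 7.49 to 4.27 with overlapping libraries (adjusted p = 0.080 in the exact permutation test).

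Among the mitotic kinesins 7 of 9 were lower, with a median of -0.28. KIF2C, which depolymerises microtubules at the centromere, was lower at -0.61 (56.9 ± 2.59 to 37.3 ± 2.54 CPM, adjusted p = 4.8e-06 in edgeR), and KIF14, which acts in cytokinesis, at -0.55. KIF18A, which damps chromosome movement, was lower at -0.39, KIF4A, a motor of the chromosome arms and central spindle, at -0.28, the minus-end motor KIFC1 at -0.28, KIF20A of the central spindle at -0.19 and KIF11, the motor that pushes the spindle poles apart, at -0.16. KIFC1 had overlapping groups. KIF23, which forms the centralspindlin complex, and KIF15, which can assist KIF11, did not pass the threshold, at -0.11 and 0.11.

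Of the 5 spindle proteins 4 were lower, with a median of -0.35. TPX2, which activates and places AURKA on the spindle, went from 201 ± 9.92 to 126 ± 6.63 CPM (-0.67, adjusted p = 1.5e-06 in edgeR). Its kinase moved less, and the ratio of AURKA to TPX2 rose from 0.496 to 0.672 (log2 difference 0.44, exact permutation test, p = 0.0286, adjusted p = 0.0444). The ratio of AURKA to AURKB fell from 4.29 to 3.80 at the same p. NUSAP1 (-0.36), DLGAP5 (-0.35) and ASPM (-0.22), which bundle spindle microtubules or organise the poles, were lower with groups apart. HMMR, a spindle protein that is also a receptor of hyaluronan, was at 26.5, 23.7, 28.1 and 27.0 CPM in the 2D-primed and at 31.0, 32.1, 27.1 and 27.3 CPM in 3D-primed libraries. These groups overlapped, and the log2 fold change of 0.16 did not pass the threshold (adjusted p = 0.082 in edgeR).

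In condensin I and topoisomerase, 4 of 6 genes were lower, with a median of -0.28, and the subunits of the same ring parted. TOP2A, which untangles sister chromatids, went from 353 ± 10.4 to 291 ± 10.7 CPM (-0.28). NCAPH (-0.43), SMC2 (-0.36) and NCAPD2 (-0.28) were lower with groups apart. SMC4 was at 62.5 ± 1.33 and 61.8 ± 2.89 CPM, and NCAPG at 36.7 ± 1.40 and 36.9 ± 2.96 CPM, with intervals of the log2 fold change from -0.11 to 0.08 and from -0.12 to 0.14, which leave out a fall as large as that estimated for NCAPH or SMC2. The ratio of SMC2 to SMC4, the ATPases of the ring, fell from 0.729 to 0.573, and that of NCAPG to NCAPH rose from 1.21 to 1.63 (log2 differences -0.35 and 0.43, exact permutation tests, p = 0.0286, adjusted p = 0.0444 for both). NCAPD2, NCAPG and SMC4 each share exon sequence with genes on the opposite strand.

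**Figure D3:**
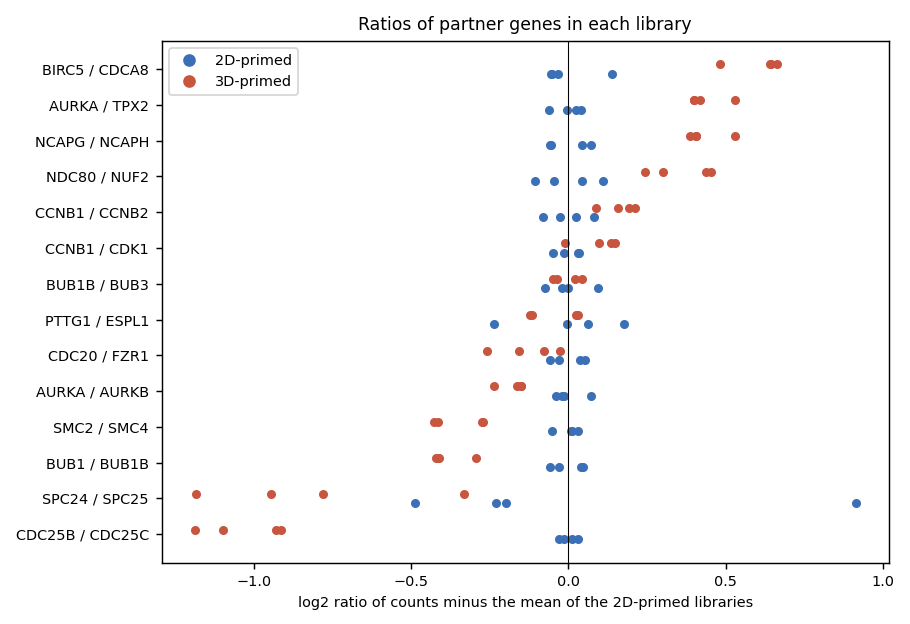
Log2 ratio of the counts of 14 partner pairs in each library (points), minus the mean of the 2D-primed libraries, with pairs sorted by the difference. The groups are apart in 9 pairs, from CDC25B to CDC25C (-1.03) to BIRC5 to CDCA8 (0.61). All 9 share the smallest p that the exact permutation test can give, 0.0286. The share of pairs apart among other genes was not measured. Of single genes tested, 59.8% had groups that did not overlap, so 9 of 14 is not read as particular to partners.

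Per kilobase of merged exons, which allows levels of different genes to be set side by side, TPX2 (55.7 CPM per kb), TOP2A (55.4), AURKA (34.0) and CDC20 (32.4) headed the members in 2D-primed cells, and SPC25 (0.768) was the lowest. The order depends on the length used. Per kilobase of the longest transcript, TOP2A (62.0) stood above TPX2 (55.7), AURKA (44.3) and PTTG1 (41.1), which was at 22.2 per kilobase of merged exons, and CDC20 was at 36.6. By merged exons, CDC25B went from 28.0 to 12.7 CPM per kb, while CCNB1 was at 29.9 and 28.2 CPM per kb.

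Within a library the members deviated together. In 3D-primed replicate 2 the value was the highest of its group for 34 of the 54 genes, and in 3D-primed replicate 3 it was the lowest for 37, with median deviations from the group mean of 0.08 and -0.08 on the log2 scale. A like median was taken over the genes tested at or above the members' lowest mean of 1.56 CPM, with a small constant added to each CPM. It lay between -0.01 and 0.01 in every library, but TMM scaling centres the bulk of genes and so keeps this median near 0. The summed level was 2578 CPM in 3D-primed replicate 2 and 2318 CPM in replicate 3, below the lowest 2D-primed library at 3113 CPM. Without 3D-primed replicate 2, 42 members were lower and BIRC5 lost its call, while CCNB1, KIF23 and UBE2C became lower calls (edgeR, adjusted p = 0.037, 0.041 and 0.034). Members thus share the spread between libraries and are not independent of each other.

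**Figure D4:**
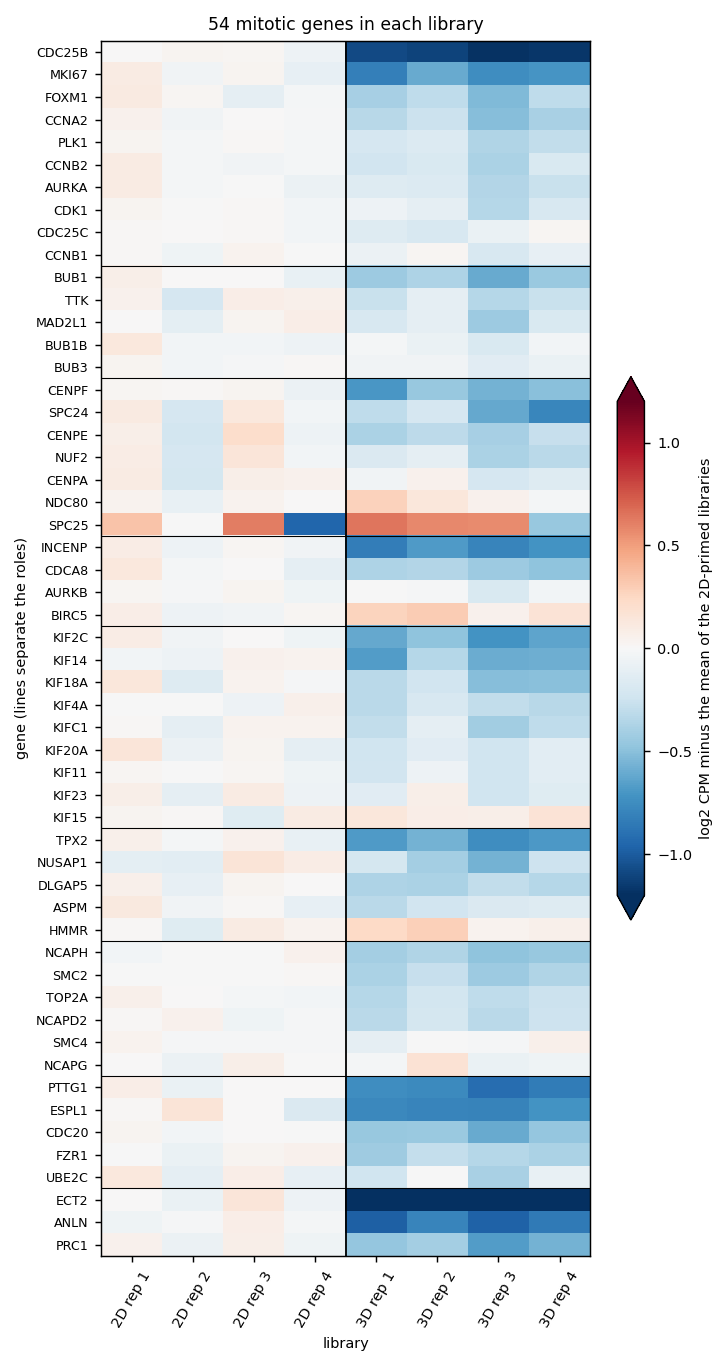
Log2 CPM of each member in each library minus the mean of its 4 2D-primed libraries, with genes grouped by role; colours are cut at both ends of the scale, which ECT2 exceeds. The 3D-primed columns are mostly below 0, most in replicate 3 and least in replicate 2.

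Other genes of mitosis, in lists that were also drawn up by role, had calls in both directions at shares near those of all genes tested. Over 132 such genes, 41 were higher (31.1%, against 32.4%), 46 were lower (34.8%, against 31.6%) and 45 did not pass the threshold, with a median log2 fold change of 0.01. The cytokinesis partners were mostly lower, at 8 of 10 genes (80%, against 31.6%, median -0.57). Among them was CEP55, which recruits the abscission machinery to the midbody (-0.83). PLK2 (-1.53), a stress-induced polo-like kinase, was sorted into this list too, though no part in cytokinesis is claimed for it here. SEPTIN2, of the filament-forming septins, was higher at 0.39. Among the genes of CDK1 control and mitotic exit 11 of 16 were lower (68.75%, against 31.6%). They included WEE1, the kinase that inhibits CDK1, at -0.97 (109.6 ± 6.34 to 55.9 ± 3.53 CPM) and NEK2, which separates centrosomes, at -0.92. Higher calls came to 4 genes (25%, against 32.4%), with ENSA, an inhibitor of the phosphatase PP2A, at 0.85 and CDC25A at 0.34. Centrosome and spindle partners were lower for 11 of 24 (45.8%, against 31.6%), with SPAG5 at -0.57 and STIL at -0.56. They were higher for 3 (12.5%, against 32.4%), with HAUS7 at 0.27 and SASS6 at 0.24.

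Of 16 outer kinetochore and checkpoint partners 9 were higher (56.25%, against 32.4% of all genes tested), such as ZWILCH (0.52) and ZWINT (0.42), which help to recruit dynein. The other 7 did not pass the threshold, while 4 of the 7 kinetochore members were lower. The difference between these lists was not tested. The inner centromere network was higher for 7 of 19 genes (36.8%, against 32.4% of all genes tested), such as CENPM (0.60) and CENPI (0.56), and lower for 6 (31.6%, the same as over all genes tested), such as HJURP, the chaperone that loads CENPA (-0.73), and CENPN (-0.45). The subunits and partners of the anaphase-promoting complex were higher for 10 of 16 (62.5%, against 32.4%), such as ANAPC13 (0.52) and ANAPC10 (0.46). They were lower for 3 (18.75%, against 31.6%), such as CDC16 (-0.46) and ANAPC11 (-0.32), while both activators of the complex were lower. Cohesin and its regulators were lower for 5 of 15 genes, 33.3% against 31.6% of all genes tested. SGO1, which protects cohesin at the centromere, was at -0.45 and SGO2 at -0.25. Higher calls came to 2 genes (13.3%, against 32.4%), STAG1 (0.49) and MAU2 (0.31). Of the 3 condensin II subunits, only NCAPH2 passed the threshold, at -0.12.

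The regulators that act on these promoters were not uniformly lower. Of 13 genes of MuvB, B-MYB and the pocket proteins 5 were higher (38.5%, against 32.4% of all genes tested), with TFDP1 at 0.78 and E2F5 at 0.71. The 1 lower gene (7.69%, against 31.6%) was LIN54, the CHR-binding subunit, at -0.63 (62.6 ± 8.28 to 40.5 ± 4.74 CPM). MYBL2, which encodes B-MYB, did not pass the threshold, at -0.14 (edgeR, adjusted p = 0.082). FOXM1, counted among the members, was lower at -0.38. The DNA replication genes, which act in the preceding S phase, went mainly the other way from the members. Of these, 22 of 34 were higher (64.7%, against 32.4%) and 3 were lower (8.82%, against 31.6%), with a median of 0.23. CDC6 (0.94) and POLA1 (0.79) rose most, and CDT1 (-0.27) and TK1 (-0.22) fell most. Of the 15 interphase transport kinesins tested, 8 were lower (53.3%, against 31.6%) and 2 higher (13.3%, against 32.4%), at a median of -0.18. KIF5A at -2.02 and KIF13A at -0.48 were lower, and KIF21B at 1.83 and KIF3C at 0.34 were higher. KIF1A and KIF26A were too low to be tested.

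**Figure D5:**
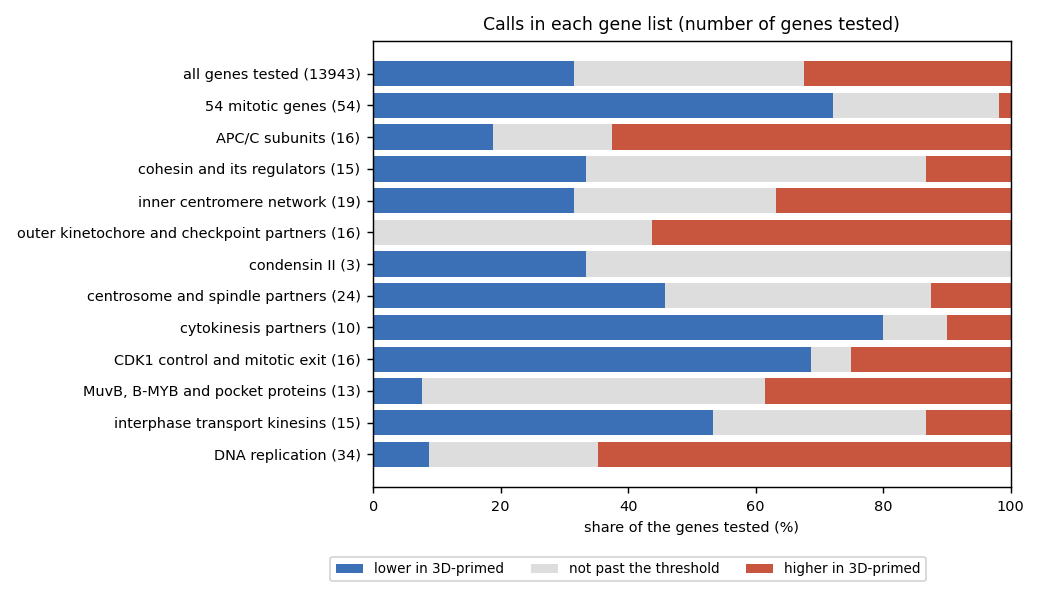
Share of the genes tested in each list that were lower (blue), higher (red) or not past the threshold (grey) in 3D-primed cells, with the number tested in brackets. The members show the lower calls of 39 of 54 genes, whereas 22 of 34 DNA replication genes are higher. Of all genes tested, 31.6% are lower and 32.4% higher.

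The libraries held 21599630 to 25019499 counts in 2D-primed and 22153063 to 27844077 in 3D-primed cells (two-sided exact permutation test, p = 0.257). Mitochondrially encoded genes made up 1.40% to 1.81% of a 2D-primed library and 2.47% to 2.98% of a 3D-primed library (exact permutation test, p = 0.0286), and the part of this in the members' fall was not tested. All 9 hepatocyte markers had counts, with a summed level of 60042 to 65180 CPM in the 2D-primed group and 86040 to 94523 CPM in the other. The markers of fibroblasts summed to 10.8 to 12.0 and 15.5 to 18.0 CPM, those of endothelium to 5.45 to 7.64 and 4.20 to 5.71 CPM, and those of leukocytes to 72.7 to 75.2 and 32.1 to 42.0 CPM, the last almost wholly CD68, with CD3E at 0. The labels do not say whether the libraries of a group came from separately seeded cultures, and p-values measure the spread between these libraries.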

How the data were processed

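Libraries were prepared by poly(A) selection with a directional kit and sequenced in read pairs. The authors deposited estimated counts per gene, made with Salmon on human cDNA (GRCh38 per the labels) and summed over transcripts, as whole numbers without scaling to depth; the length setting of that summing is not given in the sources used here. Each library's group was taken from its label. Symbols, positions and exon lengths came from GENCODE (GRCh38), in which 92.0% of the identifiers had a symbol. These carried 97.5% of the counts.

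A gene was tested when 2 or more libraries held 10 or more counts for it. The test was edgeR 4.0.16 in R 4.3.3 (TMM, glmQLFit and glmQLFTest, Benjamini-Hochberg threshold 0.05 over all 13943 genes). CPM are TMM-scaled. Ratios of the counts of 14 partner pairs were compared by two-sided exact permutation tests. Adding 0.5 to each count was an alternative for these ratios. Tables and figures were made in Python 3.11.15. The alternatives were DESeq2 1.42.0, limma-voom (limma 3.58.1), other scalings and filters, each library left out in turn and the replicate number as a block. In simulated data of 13633 genes, only 50 genes were changed at each fold in the comparison of 4 with 4 libraries. There edgeR recovered 38% of genes changed 1.25-fold, 80% at 1.5-fold, 92% at 2-fold and 98% at 3-fold, and 6.10% of its calls were false. The measured data held far more calls, 8916 of 13943 genes, and recovery with that many changed genes was not tested.

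The members and lists were chosen with earlier results of these data known. The text names every member, the genes of each pair and, of each other list, the 2 largest changes in each direction among those past the threshold. MYBL2 is named besides. All 8 values are given for MKI67, for the 3 largest changes of members in each direction and where a result turns on them. Libraries of a group differed by more than counting noise (chi-square per degree of freedom 6.15 to 16.9) and none was a duplicate. The biological coefficient of variation was 0.0934. Genes that share exon sequence with another gene tested (15 members, on the same strand for 3, CENPA, NUSAP1 and PRC1) have uncertain counts, since the strand setting of the counting is not given in the sources used here.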

Additional observations from a re-analysis of the deposited data

Results flagged for a closer look

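In 9 of the 108 sets of 4 values (54 members in 2 groups), a single library stood apart from the others by Dixon's criterion, where chance flags about 1 set in 20. Among 2D-primed libraries, replicate 1 was high for CCNB2 (47.1 CPM, the others 42.9 to 43.3), BUB1B (35.9 CPM, the others 31.5 to 31.9) and SMC4 (64.5 CPM, the others 61.8 to 61.9). Replicate 2 was low for TTK (16.7 CPM, the others 19.9 to 20.2) and CENPA (12.8 CPM, the others 15.3 to 15.8), and replicate 4 was high for SMC2 (46.1 CPM, the others 45.3 to 45.5). Among 3D-primed libraries, replicate 3 was low for AURKB (20.4 CPM, the others 22.7 to 23.1) and CDC20 (42.8 CPM, the others 47.3 to 47.8), and replicate 4 was low for SPC25 (0.953 CPM, the others 1.94 to 2.04).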

How the results depend on the processing

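The number of members lower in 3D-primed cells ran from 35 to 42 over the 17 alternatives, the number at least 1.5-fold apart from 8 to 11, the median log2 fold change from -0.31 to -0.23 and the number of all genes called from 8357 to 9070. DESeq2 called 39 members lower and 1 higher. The number of members higher was 3 under upper quartile scaling, 2 under total count scaling and 0 without 3D-primed replicate 2; leaving out each library gave 0 to 1. Upper quartile scaling moved the median of all genes from 0.01 to 0.06; there KIF15 and HMMR were called higher and CDK1, NUF2, KIF11 and KIF20A lost their calls (edgeR, adjusted p = 0.076, 0.072, 0.059 and 0.081). Under total count scaling HMMR was called higher and CDK1, NUF2 and KIF20A lost their calls.

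Values near 0 changed sign. The NCAPG log2 fold change, 0.01, was -0.0048 in DESeq2, -0.0047 under median-of-ratios scaling, -0.0020 with filterByExpr and -0.0014 with 10 counts in all 8 libraries. With each library left out it ran from -0.057 to 0.026. The SMC4 log2 fold change, -0.02, was 0.034 under upper quartile and 0.012 under total count scaling, and from -0.041 to 0.0074 with each library left out. So did the BUB1B/BUB3 ratio (log2 difference -0.030 to 0.026) and the PTTG1/ESPL1 ratio (-0.12 to 0.014). The cause was not tested.

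Same-numbered libraries of the groups had correlations of their deviations of -0.0064, -0.013, 0.13 and 0.0065, and not every library correlated best with its own number, so the numbers were not taken to pair the cultures. With the replicate number as a block, 37 members were lower, 1 was higher and 8490 genes were called; NUF2 (adjusted p = 0.059 in edgeR) and KIF20A (0.0501) lost their calls. NUF2 also lost its call without 2D-primed replicate 1 or 3 and without 3D-primed replicate 3 or 4.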
